A study of Homo sapiens with 6 samples.

Results

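A set of 8 surface genes through which epithelial cells meet leukocytes was followed: ICAM1, CD58, ALCAM, CEACAM1, CD83, CD274, ICOSLG and CD47. They were chosen by name, with earlier results of these data known. All 31 probe sets annotated to exactly 1 of these 8 symbols were taken, of 41091 such probe sets of 19775 genes on the array. The cells were Caco-2, a human colorectal adenocarcinoma line that forms a polarised monolayer with features of enterocytes. After 14 days on a permeable membrane they were placed over THP-1 cells, a human monocytic leukaemia line that 4 days of phorbol myristate acetate (PMA) had made macrophage-like. The Caco-2 RNA was put on 1 array after each of 0, 1, 3, 6, 24 and 48 h of coculture. With no replicate there is no test, and every value below has n = 1. The groups differ in time alone, and since time-matched Caco-2 cells grown alone were not analysed here, coculture and time on the membrane cannot be told apart.

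Leukocytes reach and hold an epithelium through pairs of surface proteins. Adhesion ligands such as ICAM1 bind integrins on the leukocyte, while costimulatory and coinhibitory ligands such as ICOSLG and CD274 bind receptors on T cells and raise or dampen their activation. CD47 acts on phagocytes, where its receptor SIRPA restrains engulfment. Genes of this kind, ICAM1 and CD83 above all, are textbook targets of the transcription factor NF-kB, and CD274 is known to respond to interferon gamma through IRF1.

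Signals are MAS5 intensities per probe set on a linear scale. Those under 16.2, the 50th percentile of all values, were set to that floor before log2 was taken, and a gene is represented by its brightest probe set. The words higher and lower are kept for a difference of 2-fold or more from 0 h in which the brighter array was above the floor, and a fold against an array at the floor is a lower bound. Of the 31 probe sets, 22 were above the floor on at least 1 array, and 6 of the 8 genes were above it on all 6 arrays. The exceptions were CD274, above it on 4 arrays, and ALCAM, above it on 1.

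Median signals of the arrays lay between 15.3 and 16.7. The ACTB control probe sets at the 3' and 5' ends, whose ratio reflects RNA integrity and labelling, gave a ratio of 18.0 to 37.0 at the later times, lowest at 6 h, against 51.2 at 0 h. For GAPDH the same ratio was 3.54 to 4.72 at the later times, also lowest at 6 h, against 4.69 at 0 h. The part of RNA integrity and labelling in the results was not tested. All 15 enterocyte marker genes found were above the floor on each array. Of 24 macrophage marker genes found, 10 to 13 were above it on each array, and their summed signal was 908 to 1098 at the later times, against 1191 at 0 h. Among the defining ones, PTPRC and SPI1 were never above the floor, and TYROBP was above it at 6 and 48 h alone, with signals of 19.3 and 25.5. ITGB2 was above it at 6 h alone, with a signal of 23.6, while CD14 (41.9 to 59.8) and LAPTM5 (48.8 to 141, highest at 6 h) were above it on all 6 arrays. The summed signal of these 6 genes was highest at 6 h, at 233, against 191 at 0 h. MMP9, of the longer list, had a signal of 119 at 6 h, against 21.6 at 0 h. At 6 h it was the only higher gene among 17 measured ones of that list, and it was also higher at 24 and 48 h. FCER1G and AIF1 were lower at 6 h, when the median log2 ratio of the list was 0. Of all measured genes, 4.23% were higher and 6.45% lower at 6 h. ICAM1 and CD58 also had their highest signals at 6 h, and the part of macrophage RNA in that was not tested. In such a bulk sample, fewer cells of a type and less RNA per cell cannot be told apart.

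Over the times 1, 3, 6, 24 and 48 h the number of the 8 genes that were higher was 2, 2, 4, 4 and 0. The background share of all 14623 measured genes that were higher was 1.9%, 3.1%, 4.23%, 3.95% and 3.82% in the same order. Since the 8 genes were chosen with earlier results of these data known, an excess over that share is a description only. ICAM1 and CD83 made up the count at 1 and 3 h, joined by CD58 and CEACAM1 at 6 h, and by CD274 and CEACAM1 at 24 h. CD47 was the only one of the 8 that was lower at any time, at 24 and 48 h, where the background share of lower genes was 6.14% at both. A set of 8 genes is too short to set a count of 0 or 1 apart from such shares. The median log2 ratio of the 8 genes was 0.34, 0.60, 0.82, 0.66 and 0.17 at 1, 3, 6, 24 and 48 h, against medians of -0.04 to 0 over all measured genes. Of the 22 probe sets above the floor, 3, 6, 10, 7 and 3 were higher at these times, where 2.82%, 4.99%, 5.88%, 5.06% and 5.36% of all such probe sets were. The counts of lower ones were 1, 1, 1, 2 and 2, beside 1.54%, 3.14%, 5.6%, 5.05% and 4.84%. Probe sets of a gene are repeat readings, so these counts are not of independent units. All 5 probe sets of CEACAM1 were among those higher at 6 h. Those higher at 48 h were all of CEACAM1, and the lower ones were all of CD47. For lower genes the shares were 1.44%, 3.52% and 6.45% at 1, 3 and 6 h, when none of the 8 was lower. With a 1.5-fold rule the background of higher genes was 6.53%, 9.55% and 11.2% at 1, 3 and 48 h, and 3, 4 and 1 of the 8 were higher. With a 3-fold rule it was 0.479%, 1.13% and 0.732% after 1, 6 and 24 h, with 1, 2 and 0 of the 8 higher. That of lower genes was 1.34% and 1.35% on the last 2 arrays, with none of the 8 lower.

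**Figure D1:**
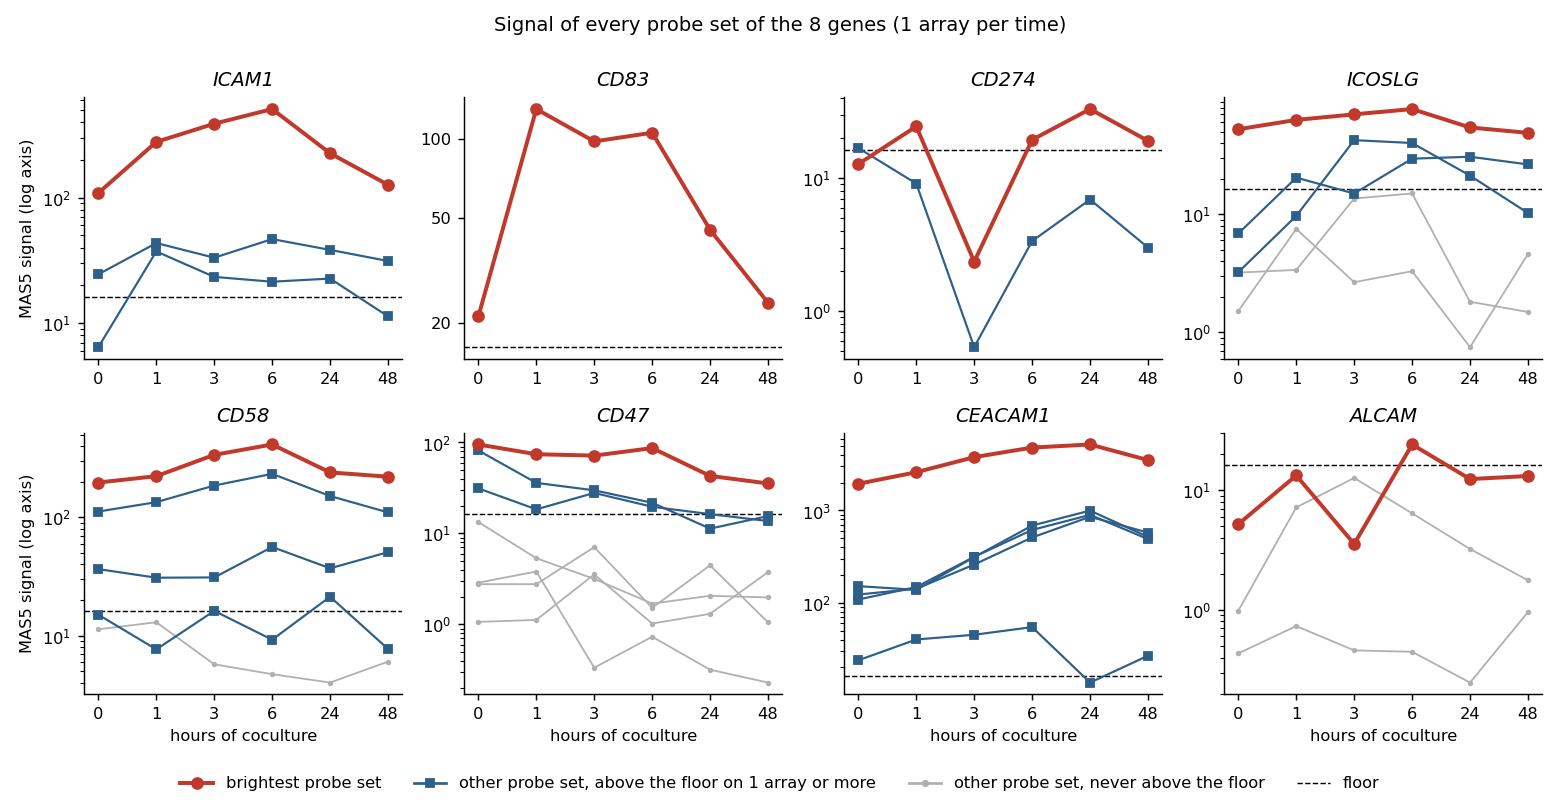
MAS5 signal (log axis) of all 31 probe sets over the 6 times, 1 panel per gene, with the brightest probe set in red and the floor of 16.2 as a dashed line. ICAM1, CD58 and CEACAM1 climbed to 6 or 24 h, CD83 stood highest at 1 h, CD47 was highest at 0 h, and CD274 and ALCAM stayed near the floor.

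ICAM1, the ligand of leukocyte integrins, rose at once and came back by the second day. Its brightest probe set, 202637_s_at, had signals of 109, 277, 387, 506, 225 and 126 at 0, 1, 3, 6, 24 and 48 h. The signal was thus highest at 6 h and close to its 0 h value at 48 h. The folds over 0 h were 2.55, 3.56, 4.66 and 2.07 in order of time up to 24 h, and the log2 ratio of the last array was 0.22. At 6 h it ranked 52 from the top among the 14623 measured genes. The other 2 probe sets were dim: 215485_s_at had a signal of 46.7 at 6 h, against 24.5 at 0 h, and 202638_s_at had 37.2 at 1 h, against 6.44, under the floor, at 0 h. The first of these moved the same way at each time, with log2 ratios from 0.35 to 0.93, and did not reach 2-fold. All probe sets of ICAM1 are of the class _s_at, which can bind transcripts of other genes.

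How far such differences exceed the noise can be judged only from probe sets of the same gene, which are repeat readings of 1 RNA and not replicates. From the 2 brightest probe sets of each gene, the robust SD of 1 log2 ratio at 6 h against 0 h was 0.48 at signals of 16 to 64, 0.42 at 64 to 256, 0.37 at 256 to 1024 and 0.19 above 1024. The log2 ratio of ICAM1 at 6 h, 2.22, is larger than that spread, but variation between cultures is not in it. With the median over its probe sets, ICAM1 gave log2 ratios of 0.83, 0.44, 0.93 and 0.65 for the times up to 24 h and passed 2-fold at none of them.

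CD83, an immunoglobulin-family protein best known from mature dendritic cells, changed most at the first time. Its only probe set had signals of 21.2, 129, 97.5, 105, 45.1 and 23.9 over the 6 times. All 4 arrays from 1 to 24 h lay above both the first and the last one. The folds over 0 h were 6.10, 4.60, 4.96 and 2.13 in order of time up to 24 h, and the first of these ranked 18 from the top among all measured genes. On the log2 scale CD83 had a step of 2.61 in the first hour and of -0.41 from 1 to 3 h. The brightest ICAM1 probe set had steps of 1.35 and 0.48 there, but its other 2 also stepped down from 1 to 3 h, by -0.67 and -0.39. The size of the CD83 folds depends on the floor, since its signal at 0 h lay just above it. With the floor at the 65th percentile the log2 ratios for the times up to 24 h were 1.79, 1.38, 1.49 and 0.27, the last no longer past 2-fold. With a pseudocount in place of the floor, that at 24 h was 0.71.

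On GRCh38.p14, RefSeq places ICAM1 at chr19:10271120-10286615 and CD83 at chr6:14117256-14136918, both on the plus strand. Promoter sequences of these 2 genes are shown because both were higher at 1, 3, 6 and 24 h and are known NF-kB targets. Their courses differed, with the highest signal at 6 h for ICAM1 and at 1 h for CD83. The RefSeq promoter table (GRCh38.p14) gives 250 bases before each start site. The kB site consensus, its shorter palindromic form GGAANTTCC, the core of the interferon-stimulated response element, the STAT palindrome TTCNNNGAA and the AP-1 site TGANTCA were searched on both strands. GGAANTTCC was added after the sequences were read. Among 35116 promoters, 12.3% held the first, 0.826% the second, 3.02% the third, 6.57% the fourth and 6.57% the fifth. For ICAM1 the window is chr19:10270870-10271119 on the plus strand, just before the gene, and capitals mark GGAANTTCC at 186 to 178 and TTCNNNGAA at 75 to 67 bases before the start. For CD83 the stretches lie at chr6:14117686-14117715 and chr6:14117711-14117740, plus strand, before the downstream of 2 annotated starts, within the annotated gene. Their capitals mark matches to the kB site consensus, which in the second stretch overlap GGAANTTCC.
ICAM1: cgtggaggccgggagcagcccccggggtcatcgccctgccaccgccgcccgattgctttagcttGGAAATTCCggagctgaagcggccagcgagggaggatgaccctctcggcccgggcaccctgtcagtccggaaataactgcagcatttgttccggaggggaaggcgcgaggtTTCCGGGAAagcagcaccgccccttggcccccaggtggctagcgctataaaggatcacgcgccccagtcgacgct
CD83 first stretch: gctgcccgccGGGGAATCCCCCgggctggc
CD83 second stretch: ctggcgcgcaGGGAAGTTCCCgaacgcgcg

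A match describes letters and not a working site. The 250 bases before the upstream CD83 start (14117256) held none of the 5 motifs, while those before the downstream start (14117772) held 6 overlapping or separate matches to the kB site consensus. No match to any of the 5 was found in the windows of CD58, CD47, ALCAM and ICOSLG. The CD274 window, chr9:5450292-5450541, held 2 overlapping matches to the interferon-response core on the minus strand, at 208 to 193 bases before the start, and 1 to TTCNNNGAA. The AP-1 site was in none of the 9 windows of the 8 genes. On the same build CD274 lies at chr9:5450542-5470554 and ALCAM at chr3:105366909-105576900 on the plus strand. On the minus strand lie CD58 at chr1:116514534-116571026, CD47 at chr3:108043091-108091031, CEACAM1 at chr19:42507306-42528481 and ICOSLG at chr21:44216981-44240943.

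CD58, the ligand of CD2 on T cells and natural killer cells, rose later and less. Its brightest probe set, 205173_x_at, had signals of 197, 223, 337, 412, 239 and 220 at 0, 1, 3, 6, 24 and 48 h. The next, 211744_s_at, had 112, 134, 186, 233, 151 and 110 at the same times. Both were highest at 6 h and within 1.5-fold of 0 h at 24 and 48 h. At 6 h they were 2.09-fold and 2.08-fold higher. A further probe set above the floor on all arrays, 216942_s_at, had log2 ratios of -0.24, -0.23 and 0.62 at 1, 3 and 6 h. All of these are of the classes _x_at and _s_at, which can bind transcripts of other genes, and of the remaining CD58 probe sets one was above the floor at 24 h only, with a signal of 21.4, and the other never. Without those classes, the log2 ratio of CD58 at 6 h was 0.

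ALCAM, an adhesion molecule that binds CD6 on T cells, could hardly be measured. The brightest of its 3 probe sets had signals of 5.19, 13.3, 3.55, 24.0, 12.4 and 13.1 over the 6 times, above the floor at 6 h only. At that time its log2 ratio to 0 h was at least 0.57. With the floor at the 30th percentile (6.38) it passed 2-fold at 1, 6 and 48 h, at log2 ratios of 1.05, 1.91 and 1.04 that rest on signals in the dimmest part of the array.

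CEACAM1 rose more slowly and stayed high longer. It encodes a cell adhesion molecule of epithelia and leukocytes that binds itself and other CEACAM proteins and carries inhibitory motifs in its long tail. Probe set 209498_at had signals of 1946, 2593, 3778, 4796, 5178 and 3509 at 0, 1, 3, 6, 24 and 48 h. Each step up to 24 h was upward, and the value at 48 h was still above that at 1 h. The folds over 0 h were 2.46 and 2.66 after 6 and 24 h, and the log2 ratios at 3 and 48 h, 0.96 and 0.85, fell short of 2-fold. At signals above 1024 the robust SD of a ratio, taken as for ICAM1, was 0.14 to 0.25 over the 5 comparisons, below each of these ratios. That range covers genes whose 2 brightest probe sets both had such signals. The next brightest of CEACAM1, 211889_x_at, was dimmer. At 256 to 1024 the SD was 0.37, 0.38 and 0.43 at 6, 24 and 48 h. The log2 ratios of 209498_at and 211889_x_at at 24 h were 1.41 and 2.72.

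Of the other 4 probe sets of CEACAM1, 3 gave larger changes at 24 h. Probe set 211883_x_at had signals of 109, 148, 315, 615, 896 and 490 over the 6 times. Probe set 211889_x_at had 152, 138, 312, 687, 996 and 518, and 206576_s_at had 123, 142, 260, 510, 854 and 576. These 3 were 6.57-fold to 8.25-fold higher at 24 h and still 3.42-fold to 4.68-fold higher at 48 h. The fourth, 210610_at, was 2.28-fold higher at 6 h and under the floor at 24 h. All 5 probe sets were thus higher at 6 h.

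CEACAM1 has close paralogs, which probe sets ending in _x_at or _s_at may not separate, so the fold of those 3 is uncertain. CEACAM5, an adhesion molecule of the colon surface, had signals of 617, 490, 592, 833, 2874 and 1975 over the 6 times. It was 4.66-fold higher at 24 h. CEACAM6 had 1383, 1629, 1742, 2041, 4109 and 3415, and its second probe set had 644 at 24 h, against 205 at 0 h. Both stayed within 1.5-fold of 0 h through 6 h and passed 2-fold at 24 and 48 h, whereas CEACAM1 had passed it by 6 h. CEACAM7 and CEACAM19 were dim, with signals of at most 35.7 and 50.3, and their log2 ratios were at least 1.14 and 1.03 at 24 h. CEACAM19 had its highest signal at 3 h, where its log2 ratio was at least 1.63.

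**Figure D2:**
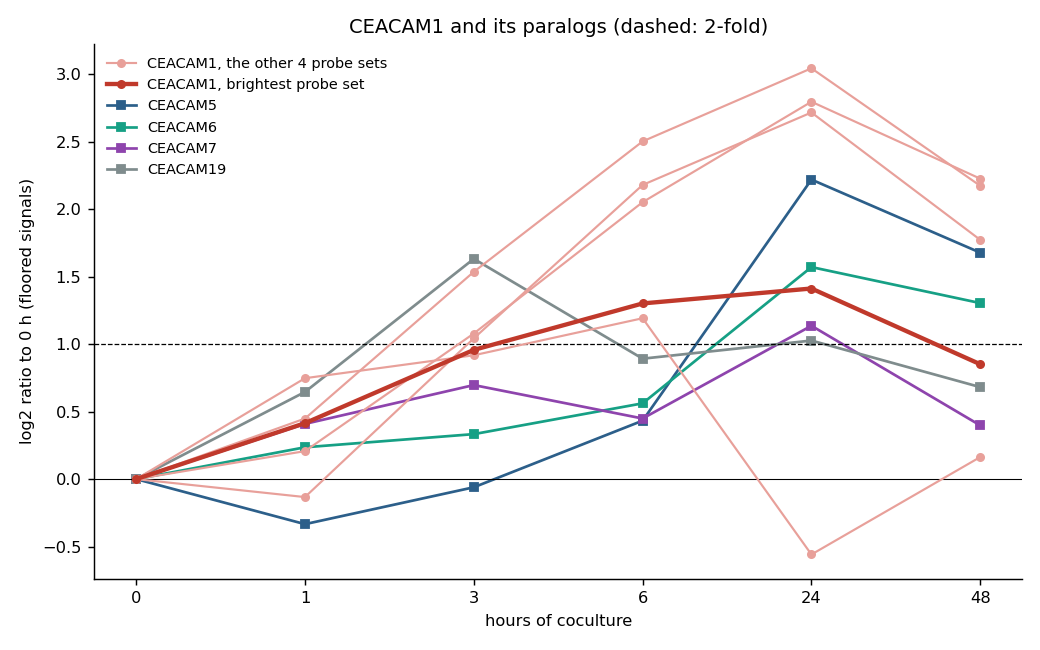
Log2 ratio to 0 h of floored signals for the 5 probe sets of CEACAM1 and for the brightest probe set of 4 paralogs over the 6 times, 1 array per time. CEACAM1 was at 1.30 at 6 h by its brightest probe set, when CEACAM5 stood at 0.43 and CEACAM6 at 0.56, and these were at 2.22 and 1.57 at 24 h.

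The sequence before the CEACAM1 start is given for comparison with ICAM1, since it rose along a later course. It is chr19:42528482-42528731 on the minus strand, written in the direction of the gene. Capitals mark a match to the kB site consensus at 203 to 194 bases and 1 to the interferon-response core at 116 to 107 bases before the start. It holds neither GGAANTTCC nor TTCNNNGAA, both of which are in the ICAM1 window, and the ICAM1 window holds neither the kB site consensus nor the interferon-response core. Since GGAANTTCC was added after the sequences were read, that difference between the windows describes letters only. A link between motifs and the time of the rise was not tested.
CEACAM1: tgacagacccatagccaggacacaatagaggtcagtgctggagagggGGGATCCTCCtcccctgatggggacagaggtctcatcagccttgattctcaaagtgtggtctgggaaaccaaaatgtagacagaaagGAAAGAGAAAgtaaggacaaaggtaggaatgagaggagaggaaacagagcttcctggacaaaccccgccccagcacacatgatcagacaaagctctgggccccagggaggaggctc

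CD274, the inhibitory ligand PD-L1 of the T cell receptor PD-1, stayed close to the floor. Probe set 223834_at had signals of 12.8, 24.5, 2.36, 19.4, 33.1 and 19.1 over the 6 times. The low value at 3 h lies between higher ones at 1 and 6 h. At 24 h it was at least 2.04-fold higher than at 0 h, the time of its only call, and a pseudocount in place of the floor gave a log2 ratio of 0.77. The second probe set, 227458_at, had 0.54 to 9.12 at the later times, against 16.9 at 0 h. The 2 therefore do not show a common direction, and no course of CD274 can be read at these signals.

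ICOSLG, the ligand of the T cell costimulator ICOS, gave a small and brief difference by its brightest probe set. Its signals were 52.5, 62.9, 70.1, 77.7, 54.3 and 48.9, with the 6 h array on top and the 48 h array at the bottom. The log2 ratio of 0.57 at 6 h did not reach 2-fold and is near the spread between probe sets at such signals (0.42 to 0.48). Probe set 213450_s_at, in contrast, was under the floor at 0 and 1 h (3.24 and 9.68), stood at 42.4 and 40.1 at 3 and 6 h, and was at least 2.61-fold and 2.47-fold higher than at 0 h there. Probe set 228976_at passed the floor at 1, 6, 24 and 48 h, with signals of 20.4 to 30.7, and the other 2 never did.

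CD47, the signal to SIRPA on macrophages, was the only gene of the set to fall past 2-fold. Its brightest probe set, 213857_s_at, had signals of 95.0, 74.2, 71.7, 86.7, 42.9 and 35.4 at 0, 1, 3, 6, 24 and 48 h. The 4 arrays up to 6 h all lay above those at 24 and 48 h. It was 2.21-fold lower at 24 h and 2.68-fold lower at 48 h, rank 298 from the bottom of 14623 measured genes at the last time. Probe set 211075_s_at had 81.6, 35.9, 29.8, 21.7, 11.3 and 15.5, and was already 2.27-fold lower at 1 h. The third above the floor at 0 h, 226016_at, had 13.7 at 48 h, against 31.3 at 0 h. All 3 were below their 0 h signal at every later time. They differ in when the drop came: at 6 h the log2 ratios were -0.13, -1.91 and -0.67 in the order given.

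The remaining 4 CD47 probe sets were never above the floor, and because of them the median over probe sets was at the floor, with a log2 ratio of 0 at each time. Without the _x_at and _s_at classes, 226016_at stands for the gene, whose log2 ratio was -0.94 at 24 h and at most -0.95 at 48 h, and CD47 then passed 2-fold at neither. With a pseudocount the log2 ratio of CD47 was -0.91 at 24 h, short of 2-fold. SIRPA itself, a receptor of myeloid cells that was above the floor on all 6 arrays, had log2 ratios of -0.20 to 0.15.

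**Figure D3:**
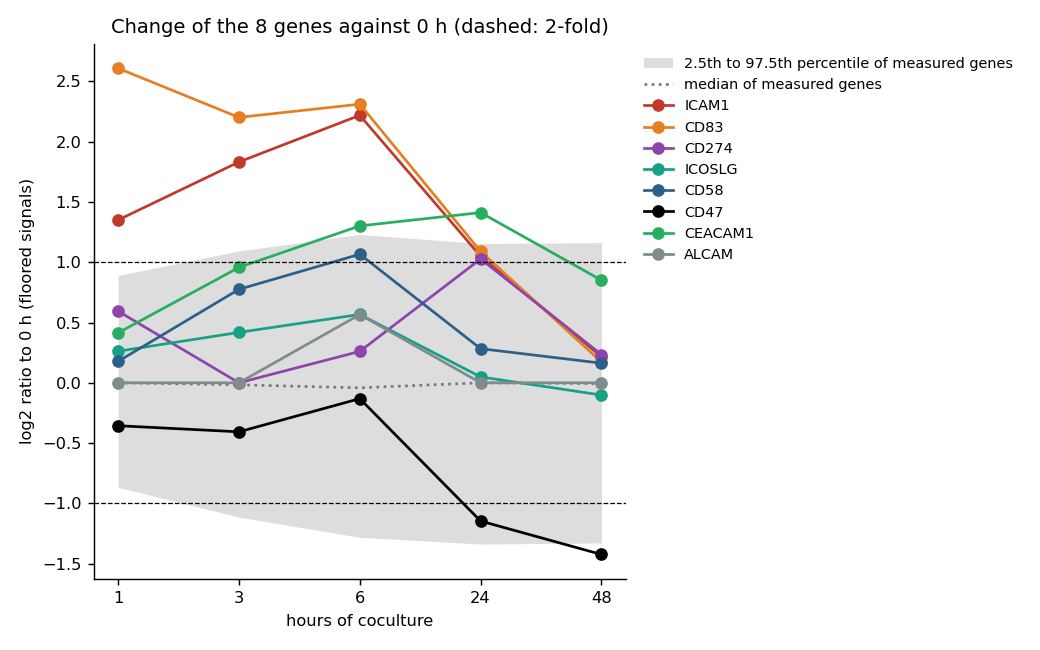
Log2 ratio to 0 h of floored signals (brightest probe set) for the 8 genes at each coculture time, with the 2.5th to 97.5th percentile of 14623 measured genes as a grey band and 2-fold as dashed lines. ICAM1 and CD83 lie above the band at 1, 3 and 6 h, CEACAM1 at 6 and 24 h, and CD47 lies below it at 48 h.

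For each of the 5 genes above the floor on all arrays and at least 2-fold apart between arrays, the 3 genes with the most similar course were sought among 3361 such genes, by Pearson r of log2 signal. The 6 arrays are points of 1 time course and share the 0 h array, so r is a description only. Closest to ICAM1 were PLAUR, the urokinase receptor, with r of 0.996, CCNL1 with 0.995 and AHCTF1 with 0.991. Closest to CD83 were the chemokine gene CXCL1 with 0.993, IER3 with 0.992 and the NF-kB subunit gene REL with 0.987. Those of CD58 were RIT1, a Ras-like GTPase, with 0.999, FOS with 0.981 and PDE8A, a phosphodiesterase, with 0.979. CEACAM1 had PTP4A2 with 0.993, the glucose transporter SLC2A1 with 0.992 and CNKSR1 with 0.990. CD47 had RANBP17 with 0.987, PPP1R12C with 0.987 and CPS1, a urea cycle enzyme, with 0.985. None of the 15 genes named is another of the 8.

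Regulators known to act on ICAM1, CD83 or CD274, a list of NF-kB, IRF, STAT, AP-1 and ETS genes with MYC, HIF1A, SP1 and CEBPB, were higher mostly in the first 6 h. The counts of higher genes among 24 measured were 11, 13, 15, 9 and 1 over the 5 later times, with 0 lower throughout. Among all measured genes 1.9%, 3.1%, 4.23%, 3.95% and 3.82% were higher at these times, and 1.44% to 6.45% were lower. The count of 1 at 48 h is near that share. This list too was chosen with earlier results of these data known, so its larger counts are a description only. The median log2 ratio of the 24 genes was 0.68, 1.11, 1.48, 0.52 and 0.23, against -0.04 to 0 over all measured genes. TNFAIP3, an inhibitor of NF-kB, had signals of 190, 1802, 1778, 1819, 890 and 251 over the 6 times. RELB, a subunit, had 17.1, 99.7, 129, 122, 90.6 and 46.5, and was the only one of the 24 still higher at 48 h. NFKB2 had log2 ratios of 1.57, 2.34, 2.74, 1.69 and 0.69, and JUNB, of the AP-1 family, 2.63, 2.26, 2.29, 0.33 and 0.75. NFKB1 was 3.16-fold higher at 6 h, and RELA had a log2 ratio of 0.61 at that time by its brightest probe set. The dim second probe set of RELA, 209878_s_at, had log2 ratios of at least 1.29, 1.05 and 1.97 at 1, 3 and 6 h. IRF1, a factor that acts on CD274, was 3.25-fold higher at 1 h by its brightest probe set but had a log2 ratio of 0.67 by the other.

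Most other leukocyte adhesion genes did not pass the 2-fold rule at any single time. Of 35 measured genes, 1, 3, 2, 7 and 4 were higher and 0, 1, 1, 2 and 1 lower at 1, 3, 6, 24 and 48 h. The share of higher genes among all measured genes at these times was 1.9%, 3.1%, 4.23%, 3.95% and 3.82%. That of lower genes was 1.44%, 3.52%, 6.45%, 6.14% and 6.14%. The median log2 ratio of the list was largest at 24 h, at 0.38. CD55, a complement regulator that also binds the leukocyte receptor CD97, had signals of 550, 1189, 2013, 2454, 2358 and 2603. It was 4.73-fold higher at 48 h, and its other 2 probe sets had log2 ratios of 1.29 and 1.26 there. At 1 h, where CD55 was the only gene of the list called higher, those 2 were at -0.03 and -0.07. CD151, a tetraspanin, was at least 3.05-fold higher at 24 h, with a signal of 49.5. Of the 7 genes higher at 24 h, 4 are the CEACAM paralogs named above, whose probe sets may share transcripts. VCAM1, the ligand of the integrin VLA-4, was never above the floor, and ICAM2 reached a signal of 30.6 at most. The cadherin gene CDH1 and EPCAM, which hold epithelial cells together, had no log2 ratio above 0.45 by their brightest probe sets. The dim second probe set of CDH1 had a log2 ratio of at least 1.19 at 3 h, with a signal of 36.9.

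Other costimulatory and coinhibitory genes were close to the background. Of 44 measured genes, 0, 2, 2, 0 and 2 were higher and 0, 0, 2, 2 and 1 lower. Over all measured genes 1.9% to 4.23% were higher and 1.44% to 6.45% lower at these times. Median log2 ratios of the list were -0.02 to 0. TNFSF4, the ligand of OX40 on T cells, fell, with signals of 171, 181, 97.7, 68.0, 61.5 and 83.2 over the 6 times. It was 2.77-fold lower at 24 h by its only probe set. NECTIN2, a ligand of the receptors DNAM-1 and TIGIT, had signals of 205, 404, 489, 443, 318 and 368, and all 4 of its probe sets were more than 2-fold higher at 3 and 6 h. VSIR, which encodes the inhibitory ligand VISTA, was 2.35-fold higher at 48 h, by its brightest probe set, whose log2 ratios through 6 h were -0.04 to 0.06. The second, 225372_at, was past 2-fold at every time, with log2 ratios of 1.21, 1.46, 1.36, 2.55 and 2.15. BTN3A1 was 2.35-fold lower at 24 h but had a log2 ratio of 0.46 at 48 h. CD86, CD80 and CD40, costimulators of antigen-presenting cells, had signals of at most 30.7, 20.9 and 53.5. PDCD1LG2, the second ligand of PD-1, and VTCN1 were never above the floor. CD276 and PVR had log2 ratios of -0.64 and -0.36 at 24 h by their brightest probe sets. For PVR the probe sets were divided, with a log2 ratio of 1.94 at 1 h in 32699_s_at and of 0.13 in 212662_at, the brightest.

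Receptors and partners of the 8 proteins, most of them leukocyte genes, had 9 measured of 12 found, none higher at any time and 1 lower, HAVCR2 at 6 h with a signal of 17.7, against 40.8 at 0 h. Genes that act on CD274 or CD47 protein had 0, 1, 2, 0 and 1 of 11 higher and none lower. At the same times 1.9%, 3.1%, 4.23%, 3.95% and 3.82% of all measured genes were higher, and 1.44% to 6.45% were lower. Lists of 9 and 11 genes are too short to set such counts apart from these shares. B3GNT3, a glycosyltransferase, was 2.55-fold higher at 6 h. FBXW7, part of a ubiquitin ligase, was 2.15-fold higher at 3 h by its brightest probe set. Its probe sets 218751_s_at and 222729_at had log2 ratios of 0.09 and 0.33 there. QPCT, a glutaminyl cyclase, was 2.14-fold higher at 48 h. CMTM6, which keeps CD274 protein at the cell surface, had signals of 2458, 2125, 2058, 1897, 1859 and 1618, a log2 ratio of -0.60 at 48 h. Its probe set 223047_at was at -0.07 there, and the dim 227953_at at -1.29 or below.

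**Figure D4:**
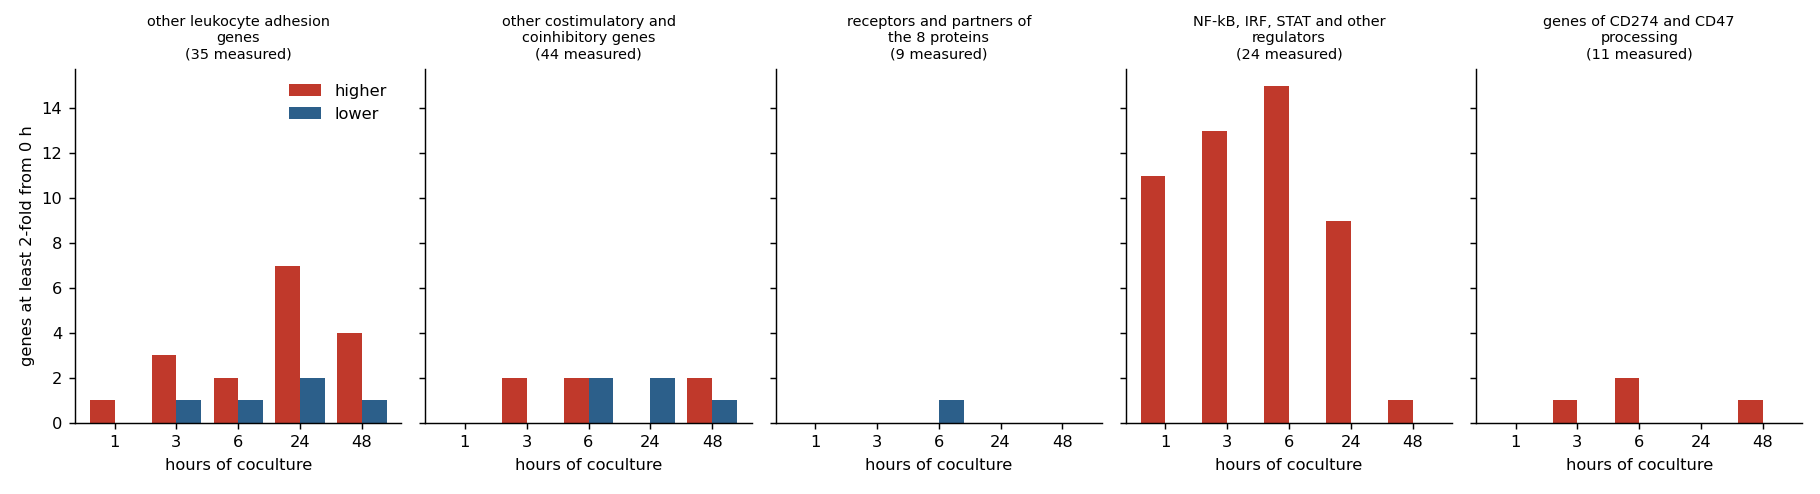
Number of genes at least 2-fold higher (red) or lower (blue) than at 0 h at each coculture time in 5 lists, with the number of measured genes above each panel. The regulators had 15 of 24 higher at 6 h, and the other adhesion genes 7 of 35 at 24 h, beside 4.23% and 3.95% of all measured genes.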

How the data were processed

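Caco-2 RNA was profiled on 6 one-colour Affymetrix arrays, 1 at each time. Per the labels' protocols, ISOGEN and an RNeasy kit yielded the RNA, of which 4 µg went into biotinylated cRNA. The values the authors deposited are linear intensities, from MAS5 according to the submitters' processing notes. Its version, scaling target and calls of detection: not given in the sources used here. The 2% trimmed mean was 93.8 on every array, and no further scaling was applied. MAS5 is noisy at low signal, and a fixed array total hides any change in RNA per cell.

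Of 54675 probe sets, 41097 had 1 symbol in the platform annotation, 1801 several and 11777 none. Symbols were updated through RefSeq gene identifiers (GRCh38.p14), found for 41043. Leaving out control probe sets, 41091 remained for 19775 genes, each represented by its probe set of highest mean log2 signal, and 14623 genes were above the floor on at least 1 array (measured genes). Deposited intensities were floored at 16.2 and log2 ratios were taken against 0 h. Precision is limited by having 1 array at each time, which allows no test. The size rule and the profile search were run on simulated data. For the size rule, the noise was less than the probe sets showed at signals up to 256, and from 3 h on at signals up to 1024. The planted changes were well past 2-fold and in bright genes only. That run therefore does not cover calls near 2-fold or near the floor. The genes and lists were chosen with earlier results of these data known. The text names all 8 genes, up to 4 changed genes of each list, a fixed set of related genes and 3 similar profiles per gene, and CEACAM7, CDH1 and EPCAM were added after their values were seen. Alternatives were other scalings, floors, probe set choices, baselines and size rules. Promoter motifs were searched with Python 3.11.15, pandas 2.3.3 and numpy 2.4.6.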

Additional observations from a re-analysis of the deposited data

How the results depend on the processing

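No paired analysis was possible because each time has 1 array. Quantile normalization and a common median of expressed probe sets changed none of the counts for the 8 genes and kept the list counts within 1.5 times, and the median log2 ratio of genes above the floor on all arrays was -0.14 at 6 h. The 8 genes gave counts of 2, 2, 4, 4 and 0 higher and 0, 0, 0, 1 and 1 lower at 1, 3, 6, 24 and 48 h, and the 5 lists gave 12, 20, 25, 20 and 10 changed genes. With the median signal over probe sets, which can set different probe sets of a gene against each other, 1, 2, 2, 2 and 1 were higher and 0 lower at 24 and 48 h. Leaving out the classes _x_at and _s_at, 1, 1, 2 and 3 were higher at 1, 3, 6 and 24 h, 0 were lower at 24 and 48 h, and 13 list genes changed at 24 h. ICAM1 drops out of that setting, since all its probe sets are of the class _s_at. Its missing calls there are not a result about ICAM1. With the 1 h array as the baseline, 0 were higher at 3, 6 and 24 h and 1 and 3 lower at 24 and 48 h, and 8, 12 and 18 list genes changed at 3, 6 and 48 h. On that baseline CD83 had log2 ratios of -0.41, -0.30, -1.52 and -2.44 at 3, 6, 24 and 48 h and ICAM1 -0.30 and -1.13 at 24 and 48 h, by construction, since both had risen by 1 h. The floor at the 30th percentile gave 3, 5 and 1 higher at 1, 6 and 48 h, each with ALCAM added, and 1 lower at 3 h, and 31, 33, 42, 34 and 31 list genes. The floor at the 65th percentile gave 2 higher and 13 list genes at 24 h, and a pseudocount in place of the floor 1 higher and 0 lower at 24 h. A 1.5-fold rule gave 3, 4 and 1 higher at 1, 3 and 48 h, and 33, 39, 48, 45 and 36 list genes. A 3-fold rule gave 1, 2 and 0 higher at 1, 6 and 24 h, 0 lower at 24 and 48 h, and 11, 10, 7 and 2 list genes at 3, 6, 24 and 48 h. A background over genes whose brighter array reached 100, added after seeing the data, was 5.38% higher at 6 h. Counts not given were equal to the main ones for the 8 genes, and for the lists within 1.5 times. The cause of the differences with other floors and probe sets was not tested. CD274, ALCAM and the dimmer probe sets of ICOSLG are limited by signals near the floor.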
